A study of Mus musculus with 6 samples.

Results

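Lipolysis in adipocytes is set by receptors on the cell surface, and 9 receptor genes of the mouse were examined: the adrenergic receptors Adrb1, Adrb3, Adra2a and Adra1a, the natriuretic peptide receptors Npr1 and Npr3, the adenosine receptor Adora1, and the metabolite receptors Hcar1 and Hcar2. They were taken as the rows whose Ensembl identifier carries one of these symbols in the GENCODE M21 annotation of GRCm38, and all 9 were found among 54532 listed genes. The RNA came from epididymal fat, the visceral depot beside the epididymis, of male C57BL/6J mice. The ND group (n = 3 libraries) received a normal diet with 4.5% fat, and the HFD group (n = 3 libraries) received a high-fat diet with 60% fat. Both diets started at 4 weeks of age and lasted 16 weeks, and the sources name no introduced allele and no drug for either group. The whole depot was sequenced, so adipocytes, immune, vascular and stromal cells contributed to every value.

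Adipocyte lipolysis is switched on by Gs-coupled receptors, which raise cyclic AMP and activate protein kinase A, and is restrained by Gi-coupled receptors, which lower cyclic AMP. In rodent white fat the β3-adrenergic receptor is the main Gs-coupled receptor for noradrenaline, while the α2A-adrenergic, adenosine and hydroxycarboxylic acid receptors act through Gi. Natriuretic peptides form a separate arm through cyclic GMP in which one receptor signals and another removes the ligand.

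The libraries held 16996896 to 18859320 counts in total, and 3 counts corresponded to 0.150 to 0.181 CPM, the count of a gene relative to the total of its library after scaling by trimmed means of M values. Of 15751 genes tested, 2504 passed an adjusted p of 0.05 in edgeR's quasi-likelihood test with Benjamini-Hochberg adjustment. In whole tissue, fewer cells of a type and less RNA per cell cannot be told apart. The summed CPM of 15 adipocyte markers ran from 60770 to 80560 on ND and from 25320 to 56000 on HFD, with 3 markers lower (Retn, Cfd and Slc2a4) and 0 higher, and all 15 were detected. The summed CPM of 12 macrophage markers ran from 1423 to 1530 on ND and from 3401 to 8106 on HFD, with 8 markers higher and 0 lower. HFD replicate 3 had the lowest adipocyte sum and the highest macrophage sum. Markers of duct epithelium, the neighbouring epididymis, summed to 225 CPM in ND replicate 3 and to 9.04 to 12.6 CPM in the other libraries. The adipocyte and macrophage sums did not overlap between the diets, and their part in the receptor values given next was not tested. The labels do not state that each library came from a separate mouse, so the p-values measure the spread between these libraries.

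Adrb3, Adra2a, Hcar1 and Hcar2 were lower on HFD, and none of the 9 receptors was called higher. They fell by 2.20-fold to 3.57-fold, and they comprise the main lipolytic β receptor and 3 receptors that restrain lipolysis. The 4 lower calls compare with 6.04% of all genes tested that were called lower, and the 0 higher calls compare with 9.85% called higher. By unadjusted p under 0.05, 6 of the 9 receptors differed, beside 34% of all genes tested, and DESeq2 called 1 receptor higher, Adra1a. The log2 fold changes of the 9 had a median of -0.97, beside 0.01 over all genes tested, with 7 below 0 and 2 above. For 5 receptors the CPM of the diets did not overlap, where 40.9% of all genes tested showed no overlap.

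**Figure D1:**
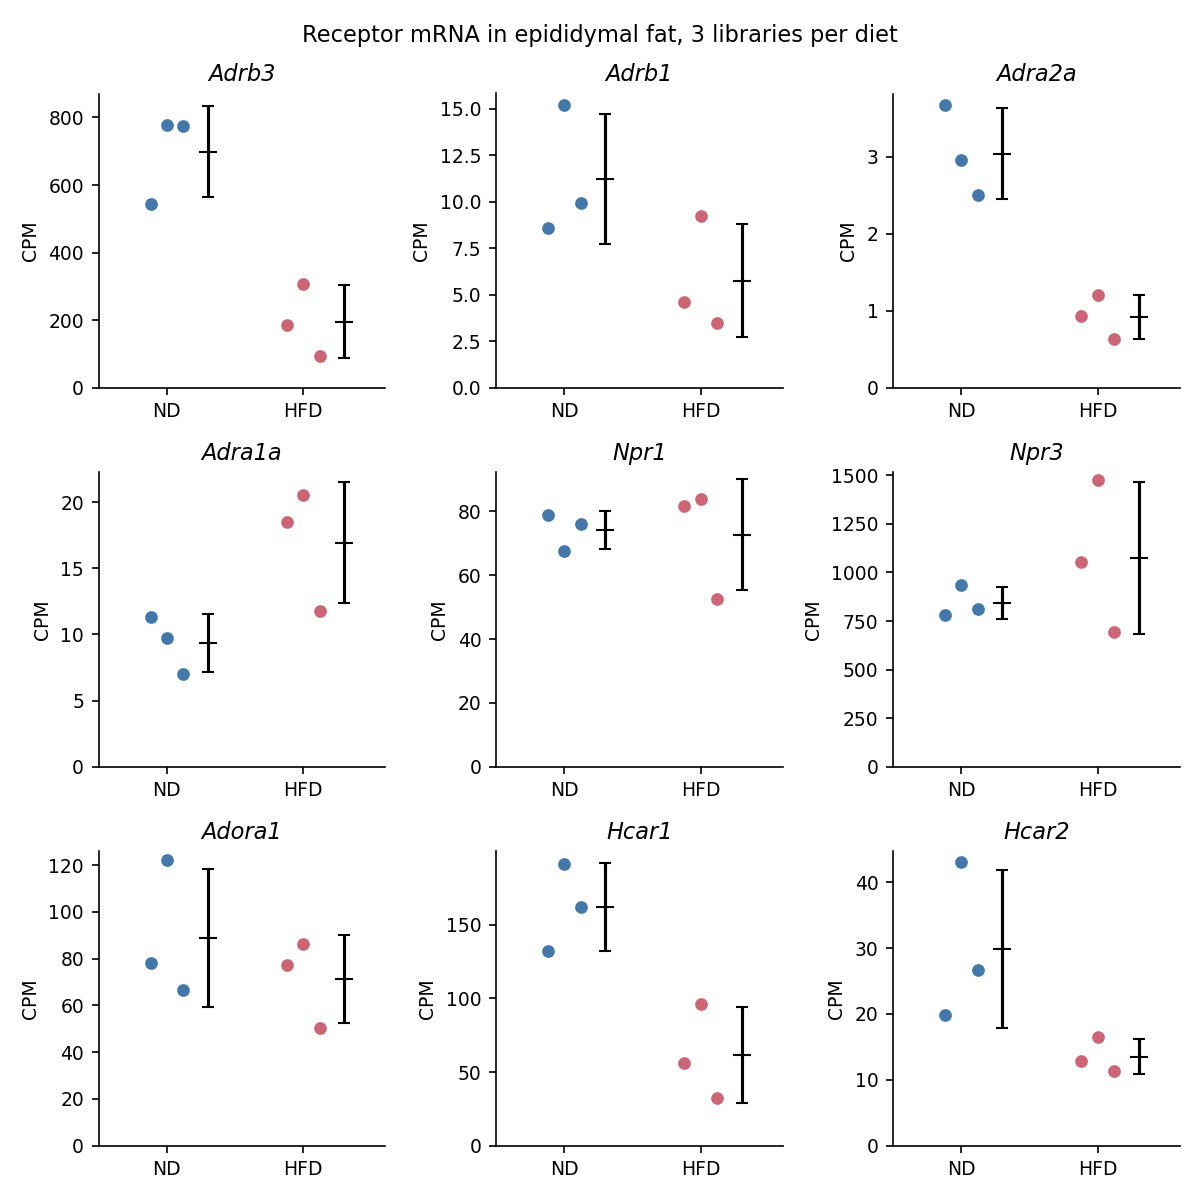
CPM (vertical axes, from 0, a separate scale for each gene) of the 9 receptors in the 3 ND and 3 HFD libraries; points are libraries, and the bar gives the mean and SD. Adrb3, Adra2a, Hcar1 and Hcar2 lie wholly lower on HFD, Adra1a lies wholly higher, and the other 4 receptors overlap.

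The calls depended on single libraries, and so did the calls over all genes. Of all genes, 492 were called without ND replicate 1, 591 without ND replicate 2 and 474 without HFD replicate 1, where the full fit called 2504. The number was 1003 without ND replicate 3, 3940 without HFD replicate 2 and 2095 without HFD replicate 3. Without ND replicate 1, without ND replicate 2 or without HFD replicate 1, 0 receptors were called lower, and without ND replicate 3 the count was 1 (Adra2a, with adjusted p from edgeR of 0.0467, beside 0.0776 for Adrb3, 0.0803 for Hcar2 and 0.102 for Hcar1). Without HFD replicate 2 the count was 5, and without HFD replicate 3 it was 3. The 4 receptors kept a negative log2 fold change in each of these fits, from -2.32 to -1.51 for Adrb3, from -1.95 to -1.52 for Adra2a, from -1.87 to -1.10 for Hcar1 and from -1.37 to -0.78 for Hcar2. When every gene with a count was tested, without a filter on low counts, 1 receptor (Adra2a) was called lower, with an adjusted p of 0.0520 for Adrb3, 0.0611 for Hcar2 and 0.118 for Hcar1 in edgeR's quasi-likelihood test.

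Adrb3 encodes the β3-adrenergic receptor and is annotated at chr8:27225776-27250616 on the minus strand of GRCm38 (ENSMUSG00000031489). ND libraries had an Adrb3 CPM of 543.5, 778.6 and 774.9, and HFD libraries one of 186.6, 307.3 and 93.25. The highest HFD library lay below the lowest ND library, and HFD replicate 3 was the lowest of all. The mean fell from 699 ± 135 to 196 ± 107 (SD, n = 3), a log2 fold change of -1.84 ± 0.42 (SE), or 3.57-fold lower, with an adjusted p of 0.0284 in edgeR's quasi-likelihood test. Without HFD replicate 3 the log2 fold change was -1.51 (adjusted p = 0.0139, edgeR). The Adrb3 exons share 839 bases with the antisense gene Gm45470, and with no strand setting given in the sources used here reads of the pair cannot be told apart. Gm45470 held 92 to 628 counts per library against 1619 to 15503 for Adrb3.

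Adrb1 encodes the β1-adrenergic receptor, which also couples to Gs, and is annotated at chr19:56722199-56733113 on the plus strand (ENSMUSG00000035283). Its CPM was 8.58, 15.2 and 9.95 on ND and 4.59, 9.22 and 3.46 on HFD. HFD replicate 2 lay above ND replicate 1, so the diets overlapped. The log2 fold change of Adrb1 was -0.97 ± 0.40 (SE), with a 95% interval from -1.91 to -0.02 and an adjusted p of 0.140 in edgeR's quasi-likelihood test. Without HFD replicate 2 Adrb1 passed, at a log2 fold change of -1.48 (adjusted p = 0.0182, edgeR).

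Adra2a encodes the α2A-adrenergic receptor, which answers the same catecholamines through Gi and restrains lipolysis. It is annotated as 1 exon at chr19:54044151-54048982 on the plus strand (ENSMUSG00000033717). Its CPM was 3.67, 2.96 and 2.50 on ND and 0.929, 1.21 and 0.634 on HFD. All HFD libraries lay below all ND libraries, at raw counts of 11 to 20 against 50 to 68, so the HFD level rested on few reads. The log2 fold change of Adra2a was -1.72 ± 0.36 (SE), or 3.29-fold lower, with an adjusted p of 0.0227 in edgeR's quasi-likelihood test. Without HFD replicate 3 it was -1.52 (adjusted p = 0.0443, edgeR).

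Adra1a encodes the α1A-adrenergic receptor, which couples to Gq and raises calcium, and is annotated at chr14:66635251-66771168 on the plus strand (ENSMUSG00000045875). Its CPM was 11.3, 9.74 and 6.998 on ND and 18.5, 20.5 and 11.8 on HFD. All HFD libraries lay above all ND libraries, the opposite order to that of Adra2a. The log2 fold change was 0.86 ± 0.27 (SE) with a 95% interval from 0.23 to 1.48, and the adjusted p of 0.0686 in edgeR's quasi-likelihood test missed the threshold. DESeq2 gave an adjusted p of 0.0396, and without HFD replicate 3 edgeR gave 0.0244 at a log2 fold change of 1.04.

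Hcar1 encodes the receptor for lactate and Hcar2 the receptor for the ketone body 3-hydroxybutyrate and for niacin, both Gi-coupled and antilipolytic. They are neighbours on the minus strand of chromosome 5, each annotated as 1 exon, at chr5:123876736-123880020 (ENSMUSG00000049241) and chr5:123863570-123865499 (ENSMUSG00000045502), and they share no run of 50 bases. The CPM of Hcar1 was 132.2, 191.6 and 162.1 on ND and 56.0, 96.4 and 32.5 on HFD. The CPM of Hcar2 was 19.8, 43.0 and 26.6 on ND and 12.8, 16.5 and 11.3 on HFD. Neither receptor overlapped between the diets, although the Hcar2 gap lay between 16.5 and 19.8. The log2 fold change was -1.39 ± 0.37 (SE) for Hcar1, or 2.63-fold lower, with an adjusted p of 0.0454 in edgeR's quasi-likelihood test. For Hcar2 it was -1.14 ± 0.30 (SE), or 2.20-fold lower, with an adjusted p of 0.0438. Without HFD replicate 3 the adjusted p was 0.0407 for Hcar1 and 0.09999 for Hcar2, and in limma-voom that of Hcar2 was 0.0590.

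Adora1 encodes the Gi-coupled adenosine A1 receptor and is annotated at chr1:134199223-134235431 on the minus strand (ENSMUSG00000042429), where 1162 exon bases are shared with the gene Mybph. Mybph held 8 counts over all libraries together. The CPM of Adora1 was 78.0, 122.2 and 66.5 on ND and 77.1, 86.4 and 50.2 on HFD. The diets overlapped, and the log2 fold change of -0.32 ± 0.28 (SE) had a 95% interval from -0.98 to 0.34 and an adjusted p of 0.460 (edgeR). A fall as large as that of Hcar1 lay outside this interval, while a change of the size of the interval's lower end was not resolved with 3 libraries per diet.

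Npr1 encodes the guanylyl cyclase receptor that turns natriuretic peptide binding into cyclic GMP, and Npr3 the receptor that takes up and clears the peptides. They are annotated at chr3:90450591-90465866 (ENSMUSG00000027931) and chr15:11839896-11907287 (ENSMUSG00000022206), both on the minus strand, and share 559 exon bases with Gm16048 and 321 with Gm5144. The CPM of Npr1 was 78.9, 67.5 and 75.9 on ND and 81.8, 84.0 and 52.5 on HFD. The CPM of Npr3 was 780.2, 934.1 and 812.0 on ND and 1055, 1475 and 692.5 on HFD. For both genes HFD replicates 1 and 2 lay above every ND library and HFD replicate 3 below every ND library, so the diets overlapped. The log2 fold change was -0.03 ± 0.19 (SE) for Npr1, with a 95% interval from -0.47 to 0.42 and an adjusted p of 0.935, and 0.35 ± 0.28 for Npr3, with a 95% interval from -0.31 to 1.01 and an adjusted p of 0.422 (edgeR). Without HFD replicate 3 the Npr1 value turned to 0.15, and it was 0.02 without ND replicate 1.

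**Figure D2:**
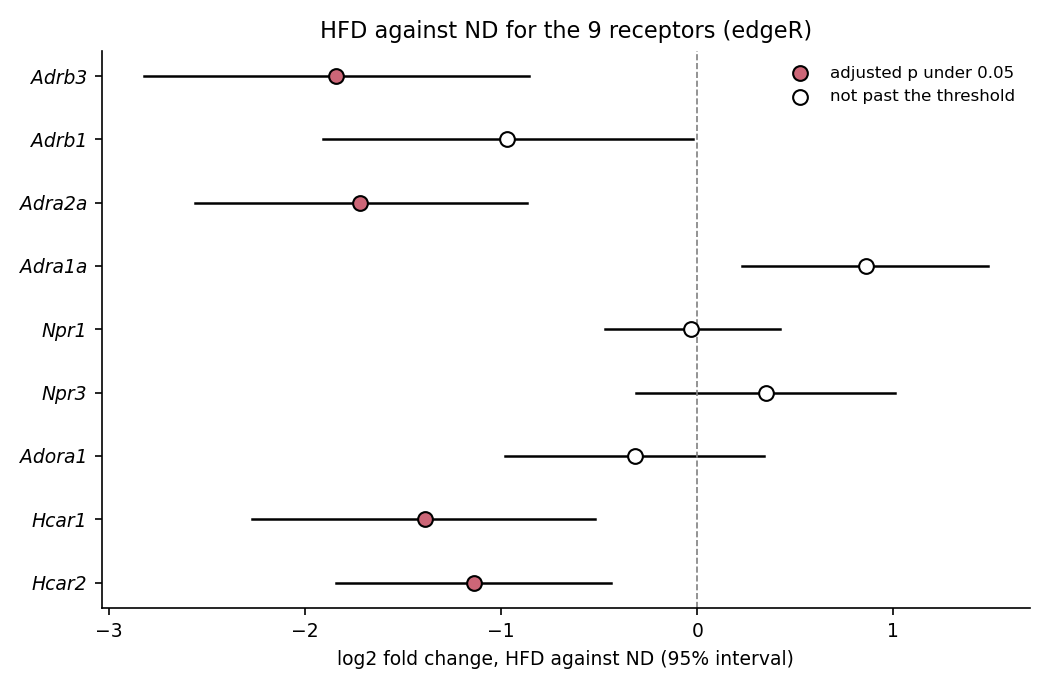
Log2 fold change of HFD against ND (horizontal axis) with its 95% interval for the 9 receptors from edgeR; filled points passed an adjusted p of 0.05. The 4 filled points lie between -1.84 and -1.14, and Npr1, Npr3 and Adora1 have intervals that include 0.

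The sequence in front of the transcription start was examined for short motifs in the 6 receptors with a RefSeq GRCm38.p6 entry. Adrb3, Adra1a and Hcar2 had no entry in that table. The start used is that of RefSeq, which for Adrb1, Npr3 and the first of the Adora1 windows lies upstream of the GENCODE M21 gene. Windows of 250 bases are shown for Hcar1, which was lower, for Adrb1 and for Npr1, whose log2 CPM had a Pearson r of 0.96 and 0.48 with that of Hcar1 over the 6 libraries. They are written 5′ to 3′, with motif matches in capitals, and the Hcar1 window is shortened by 17 bases that lie inside the annotated exon. The positions are chr5:123880021-123880253 on the minus strand, chr19:56721867-56722116 on the plus strand and chr3:90465867-90466116 on the minus strand.
Hcar1: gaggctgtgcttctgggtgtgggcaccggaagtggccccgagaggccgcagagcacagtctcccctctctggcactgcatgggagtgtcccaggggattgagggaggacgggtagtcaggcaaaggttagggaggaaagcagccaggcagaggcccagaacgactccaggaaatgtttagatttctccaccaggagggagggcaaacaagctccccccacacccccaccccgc
Adrb1: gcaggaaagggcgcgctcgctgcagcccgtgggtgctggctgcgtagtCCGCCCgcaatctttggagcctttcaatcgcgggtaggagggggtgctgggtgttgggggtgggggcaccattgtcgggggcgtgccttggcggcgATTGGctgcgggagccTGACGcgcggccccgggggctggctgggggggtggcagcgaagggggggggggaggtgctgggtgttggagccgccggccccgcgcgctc
Npr1: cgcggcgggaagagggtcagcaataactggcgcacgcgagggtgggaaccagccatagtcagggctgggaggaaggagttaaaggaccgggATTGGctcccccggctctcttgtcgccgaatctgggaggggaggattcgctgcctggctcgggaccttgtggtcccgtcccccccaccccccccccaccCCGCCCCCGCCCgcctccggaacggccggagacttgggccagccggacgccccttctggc
The search covered 8 motifs on both strands, of which the Hcar1 window held none. The cyclic AMP response element is written TGACGTCA and holds the shorter core TGACG, which was searched as well. The Adrb1 window held that core, which occurs in 17.9% of 32536 windows, the CCAAT box, which occurs in 33.8%, and the GC box GGGCGG, which occurs in 33%. The Npr1 window held the CCAAT box at 1 place and the GC box at 2 places. The Npr3 window, not shown, held the core TGACG, ending 46 bases before the start, and the CCAAT box. Of the Adora1 windows, also not shown, the first held 3 matches, all of the GC box, and the second held 0. In the Adra2a window, which lies inside the annotated exon and is not shown, the TATA box TATAAA (12.3% of windows) ended 24 bases before the start. That window also held the core of the response element, ending 65 bases before the start, the GC box, and the E-box CACGTG (6.04% of windows). The whole response element (1.56% of windows), the C/EBP palindrome TTGCGCAA (0.166%) and the nuclear receptor site AGGTCA (14%) were found in no receptor window. A GC content of 70.4% for Npr1, 74.0% for Adrb1 and 62.4% for Hcar1 compared with a median of 52.4% over all windows.

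Levels were compared between receptors only per length, as FPKM, which divides the reads of a gene by its length and by the depth of the library. On ND the order was Adrb3 (210 ± 39.8 FPKM, SD, n = 3), Npr3 (91.0 ± 9.15), Hcar1 (50.02 ± 9.25), Npr1 (15.7 ± 1.22), Hcar2 (15.7 ± 6.36), Adora1 (15.6 ± 5.26), Adrb1 (4.58 ± 1.44), Adra1a (1.09 ± 0.263) and Adra2a (0.813 ± 0.163). Npr1, Hcar2 and Adora1 overlapped, as did Adra1a and Adra2a, and the other neighbours in this order did not. Adrb3 ranked 202nd of 15751 tested genes on ND and 910th on HFD. On HFD Npr3 came first (115 ± 42.1 FPKM), before Adrb3 (58.3 ± 32.0), Hcar1 (18.9 ± 9.91), Npr1 (15.3 ± 3.71), Adora1 (12.4 ± 3.28), Hcar2 (7.04 ± 1.41), Adrb1 (2.32 ± 1.23), Adra1a (1.95 ± 0.529) and Adra2a (0.244 ± 0.0759). Neighbours overlapped here from Npr3 down to Adora1, and so did Adrb1 and Adra1a. With the exon lengths of GENCODE M21 the order was the same on ND, and on HFD Adra1a moved ahead of Adrb1.

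The clearance receptor Npr3 took the first place of Adrb3 in the make-up of the receptor mRNA, a comparison chosen after the values were seen and therefore given with no test. Adrb3 made up 48.8%, 50.8% and 55.7% of the summed FPKM of the 9 receptors on ND, and 24.5%, 28.0% and 19.8% on HFD. Npr3 made up 25.2%, 21.9% and 20.99% on ND, and 49.7%, 48.4% and 52.8% on HFD. The sum itself was 336.5, 463.1 and 413.7 FPKM on ND and 227.0, 326.7 and 140.0 FPKM on HFD. The shares were tight within a diet even though HFD replicate 3 had the lowest sum. A share rises when other receptors fall, and the CPM of Npr3 itself overlapped between the diets.

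**Figure D3:**
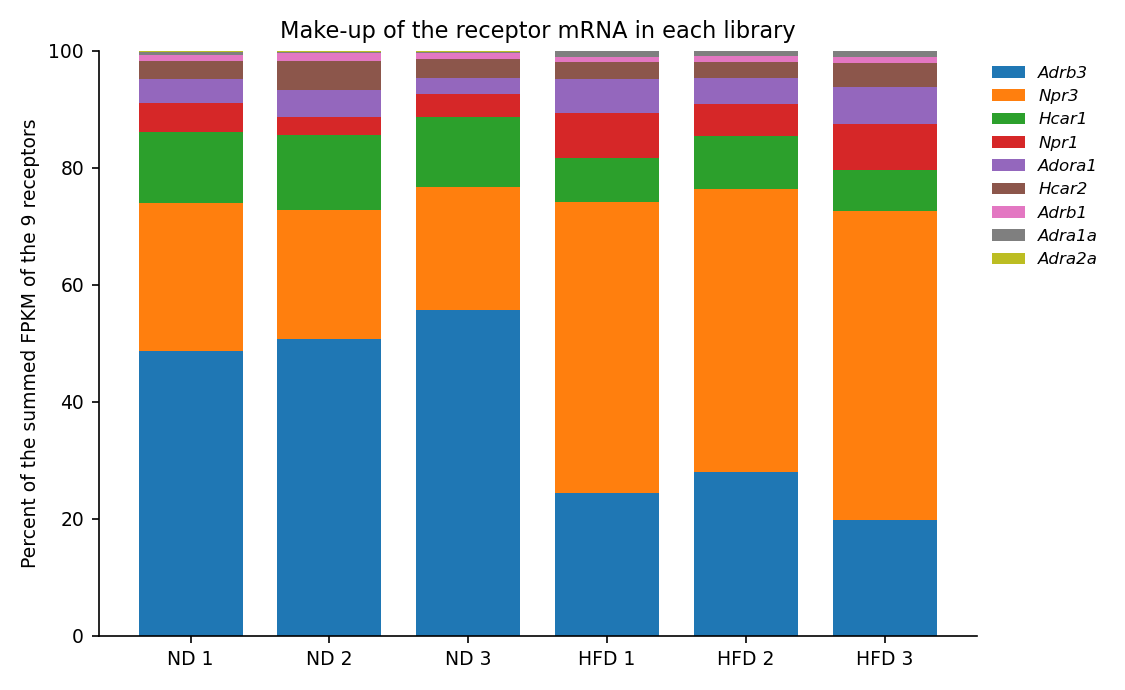
Percent of the summed FPKM of the 9 receptors (vertical axis) taken by each receptor in every library, as stacked bars. Adrb3 is the larger part in the 3 ND libraries (48.8% to 55.7%) and Npr3 in the 3 HFD libraries (48.4% to 52.8%).

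Ratios of 2 receptors within a library compared opposing or related receptors. The FPKM ratio of Adrb3 to Adra2a, which respond to the same catecholamines in opposite directions, was 166.7, 296.4 and 349.1 on ND and 226.2, 287.2 and 165.7 on HFD. These values overlapped, with a log2 difference of -0.23 and a two-sided exact permutation p of 0.5 (adjusted 0.5 over 4 ratios). The ratio of Adrb3 to Adrb1 was 46.7, 37.8 and 57.5 on ND and 30.0, 24.6 and 19.9 on HFD, so Adrb3 was lower relative to Adrb1 in each HFD library. That log2 difference was -0.93, with an exact permutation p of 0.1 (adjusted 0.4), and 0.1 is the smallest p that 3 libraries against 3 can give. The ratio of Hcar1 to Hcar2 was 3.93, 2.62 and 3.58 on ND and 2.57, 3.43 and 1.69 on HFD, a log2 difference of -0.43 (exact permutation p = 0.2, adjusted 0.4). The ratio of Npr1 to Npr3 was 0.199, 0.142 and 0.184 on ND and 0.152, 0.112 and 0.149 on HFD, a log2 difference of -0.34 (exact permutation p = 0.3, adjusted 0.4). Both of the last pairs overlapped between the diets.

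**Figure D4:**
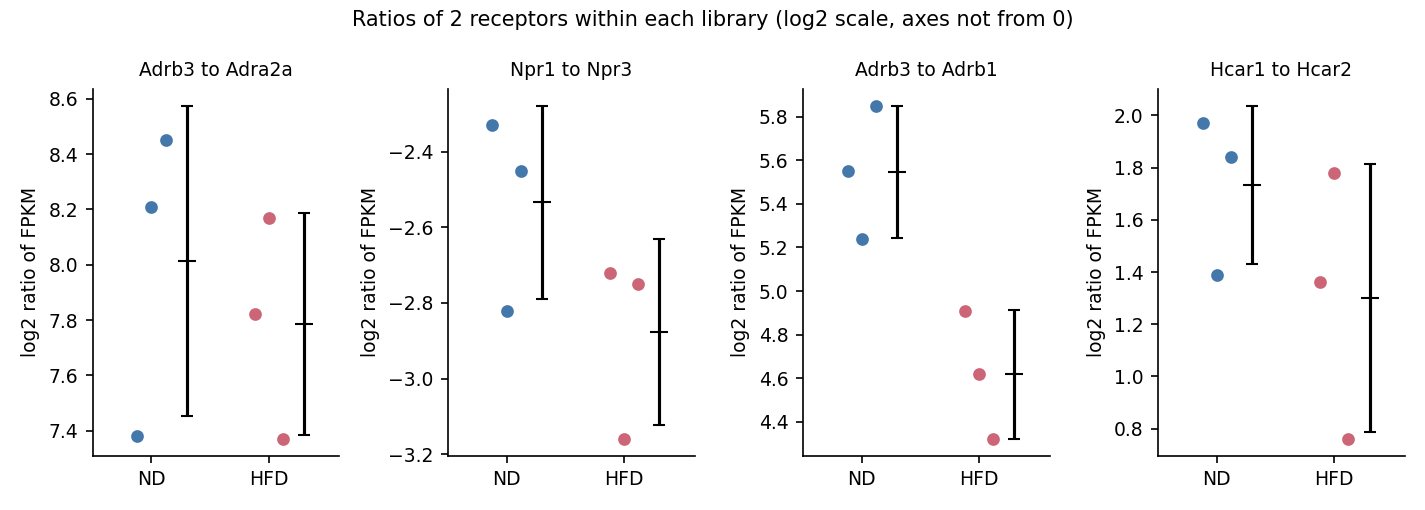
Log2 ratio of the FPKM of 2 receptors in each library (vertical axes, log2 scale, not from 0) on ND and HFD; points are libraries, and the bar gives the mean and SD. Adrb3 to Adrb1 is lower in all 3 HFD libraries, by 0.93 on average, and the other 3 ratios overlap.

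Set against the summed CPM of the 15 adipocyte markers, the receptors separated differently. The log2 ratio of Adrb3 to that sum was -7.03, -6.69 and -6.29 on ND and -7.67, -7.51 and -8.09 on HFD, a difference of -1.08. Adrb3 was thus lower beside the adipocyte markers too, by less than in CPM. Adra2a differed by -0.85 and Hcar1 by -0.62 without overlap, and Hcar2 (-0.18) and Adrb1 (-0.15) overlapped. The log2 ratio of Npr3 to the sum was -6.51, -6.43 and -6.23 on ND and -5.17, -5.25 and -5.19 on HFD, a difference of 1.19. Adra1a (1.75), Npr1 (0.84) and Adora1 (0.59) also lay above their ND values in all HFD libraries. The sum leaned on a pair of genes, Cfd (adipsin) and Car3 (carbonic anhydrase), which held 42.4% to 44.3% of it on ND and 12.4% to 25.9% on HFD. Without that pair, an alternative added after seeing the data, the difference was -1.59 for Adrb3, -1.37 for Adra2a, -1.13 for Hcar1, -0.70 for Hcar2 and -0.66 for Adrb1. It was 1.23 for Adra1a, 0.67 for Npr3, 0.33 for Npr1 and 0.08 for Adora1, and Npr1 and Adora1 then overlapped.

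Across the 6 libraries the 4 receptors called lower on HFD varied together, and Adrb1, which was not called, varied with them. This is a description over libraries that share the diet difference. Pearson's r of log2 CPM was 0.99 between Adrb3 and Hcar1, 0.93 between Adrb3 and Adrb1, 0.92 between Adrb3 and Adra2a and 0.90 between Adrb3 and Hcar2. Adora1, also not called, had an r of 0.80 with Adrb1, 0.73 with Hcar2, 0.71 with Hcar1, 0.65 with Adrb3 and 0.55 with Adra2a. The r was 0.06 between Adrb3 and Npr3, and 0.72 between Npr3 and Adra1a. Among 12523 protein-coding genes the closest profiles to Adrb3 were Paxx (r = 0.9966) and Oxld1 (r = 0.9959). Oxld1 (r = 0.9978) and Gstm2 (r = 0.9975) were closest to Hcar1, Ndufa6 (r = 0.9940) and Rora (r = 0.9938) to Hcar2, Kdm4c (r = 0.9993) and Nol6 (r = 0.9966) to Adra2a, and Exosc5 (r = 0.9957) and Cox8a (r = 0.9943) to Adrb1. Snrk (r = 0.9937) and Sesn2 (r = 0.9916) were closest to Npr3, and Kank3 (r = 0.9875) and Unc45b (r = 0.9871) to Npr1. For Adora1 they were Spr (r = 0.9805) and P2rx5 (r = 0.9794), and for Adra1a Polr1a (r = 0.9860) and Yju2 (r = 0.9810).

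The remaining genes of the signalling chain were read from 14 lists of 128 genes, of which 111 could be tested. On HFD 15 were higher and 12 lower, with a median log2 fold change of 0.00. Over all genes tested 9.85% were called higher and 6.04% lower, and the counts of each list that follow are to be read beside these shares. These counts also changed when 1 library was left out, as did the count over all genes. They were 3 higher and 2 lower without HFD replicate 1, where 474 genes were called in all. Without HFD replicate 2 they were 24 higher and 23 lower, where 3940 genes were called in all. They were 5 and 3 without ND replicate 1, 4 and 3 without ND replicate 2, and 7 and 6 without ND replicate 3. Without HFD replicate 3 they stayed near the full fit, at 15 higher and 10 lower.

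Among ligand supply and neighbouring receptors, none of the 4 other adrenergic receptors tested passed. In adenosine handling 1 of 8 genes was higher and 2 were lower. Nt5e, the ecto-enzyme that makes adenosine from AMP, had a CPM of 23.9, 14.7 and 37.3 on ND and 4.32, 4.40 and 1.33 on HFD. Its log2 fold change was -2.92 ± 0.51 (SE, adjusted p = 0.0138, edgeR), while Entpd1, which acts a step earlier, rose by 0.63 (adjusted p = 0.0375) and Adk, which removes adenosine, fell by 0.75 (adjusted p = 0.0335). Of 6 natriuretic pathway genes tested, Prkg2, a cyclic GMP-dependent kinase, was lower (log2 fold change -2.07, adjusted p = 0.0289) at a CPM under 1.03 in every library. In catecholamine turnover 1 of 7 genes was higher and 1 lower, and both were monoamine oxidases, Maoa at 0.59 (adjusted p = 0.0464) and Maob at -1.65 (adjusted p = 0.0246).

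Of 8 other lipolytic hormone receptors tested, the interleukin-6 receptor Il6ra rose by 0.71 on the log2 scale (adjusted p = 0.0132, edgeR). The melanocortin receptor Mc5r was lower, with 17, 42 and 11 reads under ND but 0, 2 and 1 under HFD, an ND-to-HFD ratio of 21.9 with a 95% counting interval from 7.18 to 108.6 (exact, counting error only) and an adjusted p of 0.0252 (edgeR). Among 7 other Gi-coupled receptors the cannabinoid receptor Cnr1 was lower, with a CPM of 17.98, 14.7 and 18.1 on ND and 5.08, 6.57 and 4.72 on HFD. Its log2 fold change was -1.63 ± 0.19 (SE, adjusted p = 0.00624, edgeR), and its diets did not overlap.

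Downstream of the receptors, cyclic nucleotide phosphodiesterases, which break down cyclic AMP and cyclic GMP, were higher in 5 of 12 tested members and lower in 0. Pde7b (log2 fold change 1.25, adjusted p = 0.0139), Pde7a (1.18, 0.0181), Pde4d (1.03, 0.0252) and Pde8a (0.82, 0.00732) were the 4 largest by edgeR. Pde3b, the isoform through which insulin restrains lipolysis, had a CPM of 459.4, 455.8 and 429.1 on ND and 219.1, 342.1 and 122.2 on HFD, with an adjusted p of 0.0920, and was named after its values were seen. The summed CPM of the 13 listed phosphodiesterases was lower on HFD, from 344.7 to 621.2 against 633.1 to 676.4 on ND. Pde3b held most of that sum on ND, and without Pde3b the sum was not lower on HFD. Of 7 adenylyl cyclases Adcy7 (2.19, adjusted p = 0.0118) and Adcy3 (1.05, adjusted p = 0.0138) were higher, of 11 G protein subunits Gng2 (1.72, adjusted p = 0.0143), and of 11 kinase A subunits and anchors Akap13 (0.95, adjusted p = 0.0101). None of these 3 lists had a lower member. Among receptor kinases, arrestins and RGS proteins, which end receptor signals, Arrb2 (0.95, adjusted p = 0.0452) and Rgs1 (7.17, adjusted p = 0.00344) were higher, and Rgs5 and Rgs16 (both -1.16, adjusted p = 0.0192 and 0.0301) were lower, of 11. The macrophage marker sum was also higher on HFD, its smallest HFD value being 3401 against a highest ND value of 1530. Its part in the higher and lower calls of these lists was not tested. Rgs5 is also on the smooth muscle and pericyte marker list, whose sum ran from 896.6 to 1067 CPM on ND and from 473 to 679.2 on HFD.

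Acvr1c encodes ALK7, a receptor of adipocytes known to restrain catecholamine-driven lipolysis. Its CPM was 229.6, 298.4 and 271.4 on ND and 100.4, 128.8 and 42.3 on HFD, without overlap, and its log2 fold change was -1.56 ± 0.37 (SE, adjusted p = 0.0339, edgeR). Its ligand gene Gdf3 was counted 0, 3 and 0 times in the ND libraries but 270, 122 and 449 times under HFD, an HFD-to-ND ratio of 299.1 with a 95% counting interval from 102 to 1453, and an adjusted p of 0.00606. The other 3 tested members of the 5 did not pass. Of 7 lipolytic enzymes and droplet proteins, the co-activator Abhd5 (-0.99, adjusted p = 0.00853) and the lipase inhibitor G0s2 (-2.06, adjusted p = 0.0190) were lower. Of 8 genes induced by cyclic AMP, Ppargc1a, a coactivator of mitochondrial genes, was lower (-2.17, adjusted p = 0.0114) and Pde4d higher.

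**Figure D5:**
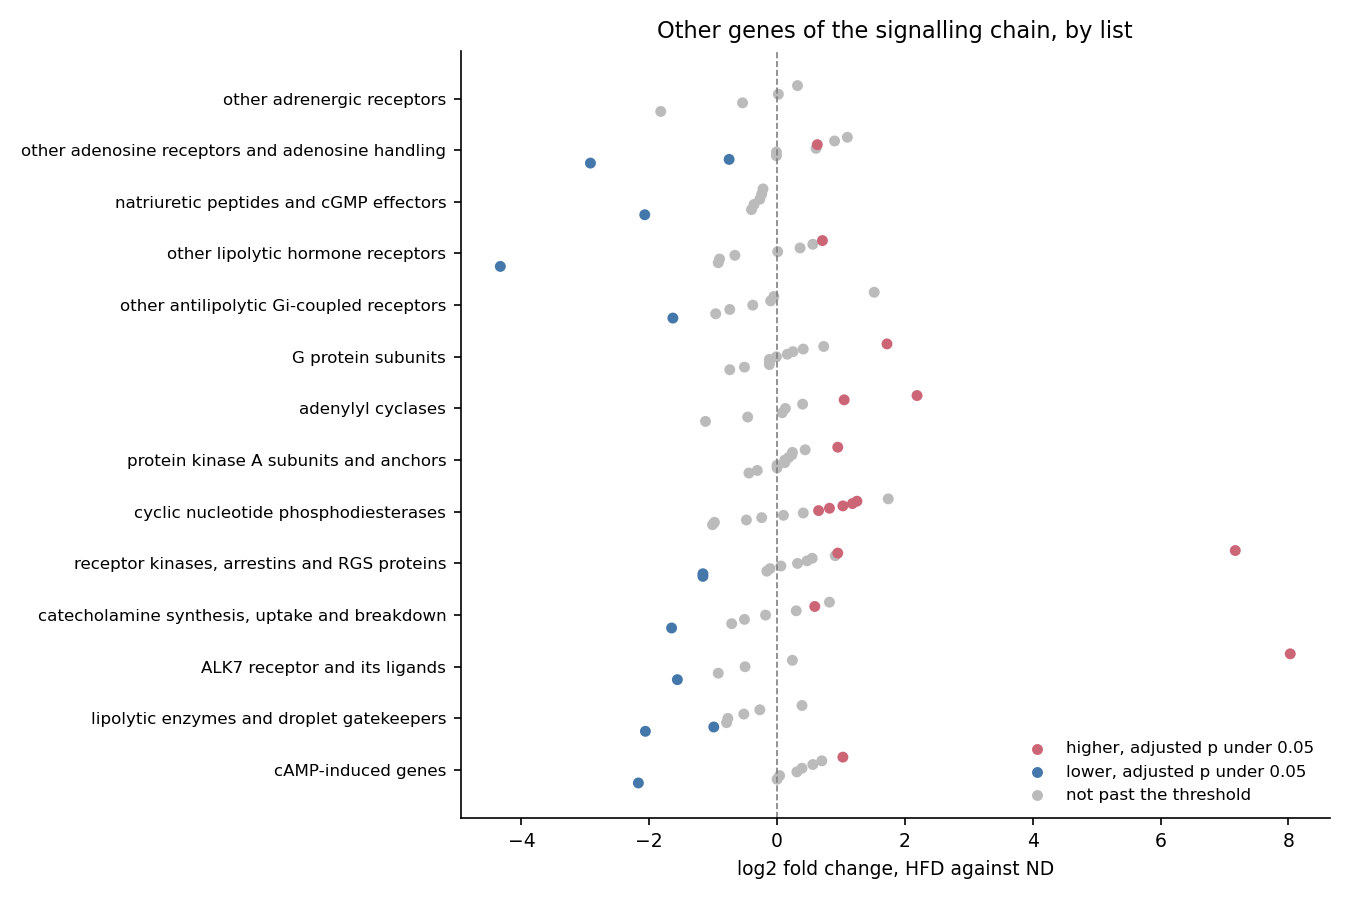
Log2 fold change of HFD against ND (horizontal axis) for the 111 tested genes of the 14 pathway lists, 1 point per gene and entry in a list; colours mark genes past an adjusted p of 0.05 in edgeR. The phosphodiesterases have 5 higher and 0 lower members. Their summed CPM was lower in all HFD libraries only with Pde3b counted, a gene that did not pass. The far right points are Rgs1 and Gdf3, the latter with 3 counts in all on ND.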

How the data were processed

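Epididymal fat RNA of 3 ND and 3 HFD libraries was sequenced after NEBNext Ultra library preparation. The authors deposited raw read counts per gene and FPKM values. Their methods name TopHat and Cufflinks on mouse GRCm38, and the submitters' processing notes name CASAVA 1.8, fastp, HISAT2 2.0.5, featureCounts 1.5.0-p3 and a human build. Both name DESeq2 1.20.0. The identifiers are mouse Ensembl identifiers (54495 of 54532 found in GENCODE M21). The annotation release and strand setting are not given in the sources used here.

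Counts were tested with edgeR 4.0.16 (R 4.3.3; quasi-likelihood, robust, TMM, filterByExpr, diet only), with Benjamini-Hochberg adjustment over 15751 genes at 0.05. Alternatives were DESeq2 1.42.0, limma-voom and limma on log2(FPKM + 1) or log2(FPKM + 0.1) (limma 3.58.1, FPKM of at least 0.5 in 3 libraries, or no filter), other scalings and count filters, a replicate block, and leaving out each library. Scripts were tested on simulated counts in which 200 genes were changed by 2 on the log2 scale. edgeR called 207 genes, of which 20 had not been changed. DESeq2 called 257, with 62 not changed, and limma-voom 196, with 13 not changed. Same-numbered ND and HFD libraries did not deviate together (r = -0.0674, -0.0387 and -0.00212).

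Members and lists were chosen with earlier results of these data known. All 9 receptors are named. In each pathway list every gene past the threshold is named up to 4, otherwise the 4 of largest change with an average log2 CPM above 1. The 2 protein-coding genes of highest r, above the same level, are named per receptor. Log2 CPM used a pseudocount of 0.5. Of the 10 marker lists, adipocyte and macrophage calls are in the report. Among the others, neutrophil markers had 2 higher and 1 lower of 5 tested, smooth muscle 2 lower of 10, and nerve 2 lower of 7. Lymphocyte, endothelial, progenitor, mesothelial and duct markers had 0 calls.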

Additional observations from a re-analysis of the deposited data

How the results depend on the processing

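The number of genes called between HFD and ND (2504) was 649 with limma on unfiltered log2(FPKM + 1), and 474 to 3940 with 1 library left out. Receptors lower on HFD (4) numbered 1 without a count filter, 0 with limma on unfiltered FPKM, and 0 to 5 with 1 library left out, and receptors higher (0) numbered 1 in DESeq2 and 0 to 1 with 1 library left out (without HFD replicate 3, Adra1a). Pathway genes lower (12) and higher (15) numbered 3 and 5 with limma on unfiltered FPKM, and 2 to 23 and 3 to 24 with 1 library left out. Apart from these and the replicate block, given next, the alternatives kept these counts within 1.5 times. In signed values, the Npr1 log2 fold change (-0.03) with 1 library left out ran from -0.15 (without HFD replicate 1) to 0.15 (without HFD replicate 3), and was 0.02 without ND replicate 1. With 1 library left out, the Hcar2 level per adipocyte marker (-0.18) ran from -0.45 (without ND replicate 1) to 0.02 (without ND replicate 2), and without Cfd and Car3 in the marker sum it was -0.70. Of 17 alternatives, Adra2a passed the threshold in 13, Adrb3 and Hcar1 in 11, Hcar2 in 7, Adra1a in 3, Adrb1 in 1, and Npr1, Npr3 and Adora1 in 0. With the FPKM pseudocount of 1 the Adra2a value shrank to -0.54, with or without the filter, and with 0.1 it was -1.42. The mean Adra2a FPKM (0.813 on ND and 0.244 on HFD) lay below the pseudocount of 1, which shrinks a log2 ratio at such levels. The cause of the other differences was not tested. At 11 to 20 counts, depth limits the HFD level of Adra2a.

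A replicate block added to the fit called 1886 genes, 4 receptors lower, 1 receptor higher (Adra1a, adjusted p = 0.0378, edgeR), 11 pathway genes lower and 11 higher. No label ties same-numbered libraries of the diets to each other, and these libraries did not deviate together, so the pairing is by number alone.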
